A study of Mus musculus with 4 samples.

Results

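Lungs of orchiectomized mice given elastase (ORX/PPE) were set against lungs of sham-operated mice given PBS (sham/PBS), the comparison that joins both treatments of the study against the group that had neither. Its members are 2 of the 4 arrays of the series, chosen by their titles. The ORX/PPE group had its testes removed and inhaled PPE, porcine pancreatic elastase, the enzyme commonly used to produce experimental emphysema. Sham/PBS mice had a sham operation and inhaled PBS, a buffered salt solution. The ORX/PBS and sham/PPE groups, each with 1 of the 2 treatments, are given beside them. All were C57BL/6J mice whose lungs were labelled as collected 3 weeks after administration, and each array held RNA pooled from 5 mice. Age, hormone levels and the hour of collection are not given in the sources used here.

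Elastase placed in the airways breaks elastic fibres, and the lung responds with an influx of neutrophils followed by macrophages that release further proteases, while alveolar walls are lost. Protease inhibitors of the serpin, cystatin and metalloproteinase inhibitor families are the usual counterweight. Testis removal takes away the main source of androgens in male mice.

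With 1 pooled array a group there is no measure of the spread between mice, so no difference below was tested and each is a description of these pools. Both surgery and inhaled agent differ between the 2 arrays, so their parts in a difference cannot be told apart. A level is the log2 of the scanner signal minus the log2 of that array's 75th percentile, and a difference is the ORX/PPE level minus the sham/PBS level. Levels serve to compare arrays for 1 gene, not 1 gene with another. In whole lung, fewer cells of a type and less RNA per cell cannot be told apart.

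Of 24960 named genes, 18481 were well above background on both arrays. The 75th percentile signal was 621.5 on the ORX/PPE array, 715.1 on ORX/PBS and 591.7 on sham/PPE, against 618.5 on sham/PBS. Between 18929 and 19595 genes were above background on an array, no spot was saturated, and the 4 arrays shared 1 slide and 1 scan date. Probes printed in 10 spots gave a median SD of 0.048 for the log2 difference of single spots over 300 such probes, which covers the spots and not the mice. For the 3 of these probes with a signal under 50 it was 0.59. Of the lung markers, the surfactant gene Sftpc had levels of 9.36 in ORX/PPE and 9.43 in sham/PBS, and the club cell gene Scgb1a1 had 9.22 and 9.29.

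At least 2-fold higher levels in ORX/PPE than in sham/PBS were found for 148 genes, 0.801% of those measured, and at least 2-fold lower levels for 197 genes, 1.07%. At these shares, gene lists as short as those below would often hold none past 2-fold. The median difference over all measured genes was 0.00, with an SD over genes of 0.35. The threshold has no gap around it: Ntn5, just inside at 1.0, and Qrich2, just outside at 0.99, are neighbours on the higher side. On the lower side Igf2 lay just inside, at -1.01. Of the higher genes 28, and of the lower genes 51, had a signal under 50 on both arrays. With normexp, an alternative background correction that pulls dim signals together, 57 of the 148 and 63 of the 197 stayed past 2-fold and 0 changed sign. Values named "with normexp" below refer to it. Another measured probe was present for 32 higher genes, and all other probes went the same way in 30 and passed 2-fold in 13. For the 48 such lower genes, these counts were 36 and 17.

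**Figure D1:**
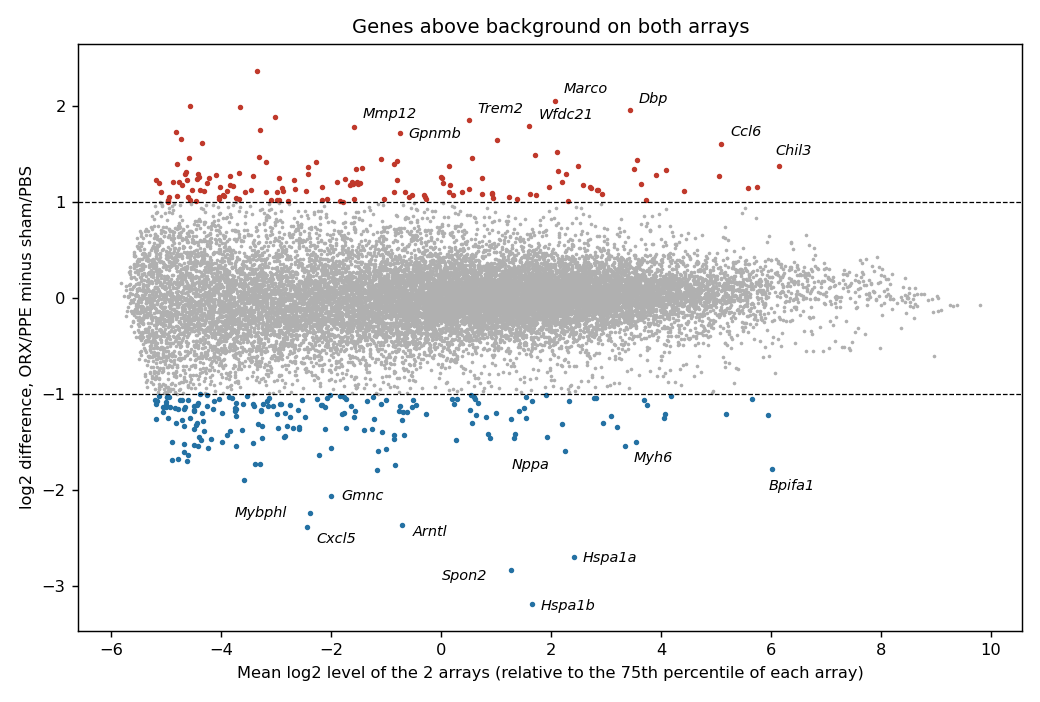
Difference between ORX/PPE and sham/PBS (log2, vertical) against the mean log2 level of the 2 arrays (horizontal) for the 18481 genes above background on both. Red points are the 148 genes at least 2-fold higher, blue points the 197 at least 2-fold lower, dashed lines mark 2-fold. Hspa1b at -3.19, Spon2 at -2.83 and Hspa1a at -2.70 lie lowest among the labelled genes, and Marco at 2.06 highest.

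Of 26 measured alveolar macrophage genes 23 were above 0 in ORX/PPE against sham/PBS lungs, 8 passed 2-fold on the higher side and 0 on the lower, and the median difference was 0.56. Marco, a scavenger receptor that binds particles and bacteria, had levels of 3.09 in ORX/PPE, 0.80 in ORX/PBS and 2.86 in sham/PPE lungs, against 1.04 in sham/PBS lungs. The difference of 2.06, or 2.02 with normexp, was among the largest measured, and both elastase pools were high while both PBS pools were low. Its probe lies at chr1:122371115-122371134 of mm9. Chil3, a chitinase-like protein of alveolar macrophages, had levels of 6.84 in ORX/PPE, 5.82 in ORX/PBS and 6.52 in sham/PPE, against 5.46 in sham/PBS, a difference of 1.37. Ear1, an eosinophil-associated ribonuclease that mouse alveolar macrophages also make, had levels of 2.78, 2.74 and 2.53 in the same order, against 1.46 in sham/PBS. There the sham/PBS pool was the one apart from the other 3. Ear6 and Ear10, close copies of Ear1 whose probes may cross-hybridize, differed by 1.20 and 1.15, and Ear6 by 0.88 with normexp. The identity genes Siglecf at 0.54 and Mrc1, the mannose receptor, at 0.58 were less than 2-fold higher, and Car4, also an endothelial gene, was at -0.21.

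Genes of lipid-associated macrophages, the lysosome-rich state marked by Trem2, had 19 of 21 above 0, with 5 at least 2-fold higher, 0 lower and a median of 0.49. Trem2, a lipid-sensing receptor, had levels of 1.43 in ORX/PPE, 0.10 in ORX/PBS and 1.07 in sham/PPE, against -0.42 in sham/PBS, a difference of 1.85. Gpnmb, a lysosomal glycoprotein, had 0.11, -1.39 and -0.29, against -1.61, a difference of 1.72. In both genes the ORX/PPE pool was highest and sham/PBS lowest. Cd68, a lysosomal macrophage marker, differed by 1.20, and its other 2 probes by 1.22 and 1.24. Atp6v0d2, a proton pump subunit, differed by 1.13. Cd9 at -0.02 and the lipid droplet gene Plin2 at -0.04 differed little between the pools.

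Among 15 alternative activation genes, 3 passed 2-fold on the higher side and 0 on the lower, with 8 above 0 and 7 below. They were Chil3, its neighbour Chil4 at 1.36, and Arg1, the arginine-degrading enzyme, at 1.1, which was 0.54 with normexp. Retnla at 0.61 and Ccl17 at 0.47 were below 2-fold, and the eotaxin Ccl24 was at -0.41. Monocyte and interstitial macrophage genes were mixed, with 2 of 26 at least 2-fold higher and 1 lower. Ms4a7 was at 1.08, the complement genes C1qa, C1qb and C1qc lay between 0.33 and 0.61, and the lectin Cd209f was at -1.25, with levels of -1.86 in ORX/PPE, -0.52 in ORX/PBS and -1.43 in sham/PPE, against -0.60 in sham/PBS. Folr2, a folate receptor of perivascular macrophages, was at -0.84. Clec4n, the fungal receptor dectin-2 of myeloid cells, had levels of 2.87, 2.05 and 2.86 in ORX/PPE, ORX/PBS and sham/PPE, against 1.35 in sham/PBS.

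**Figure D2:**
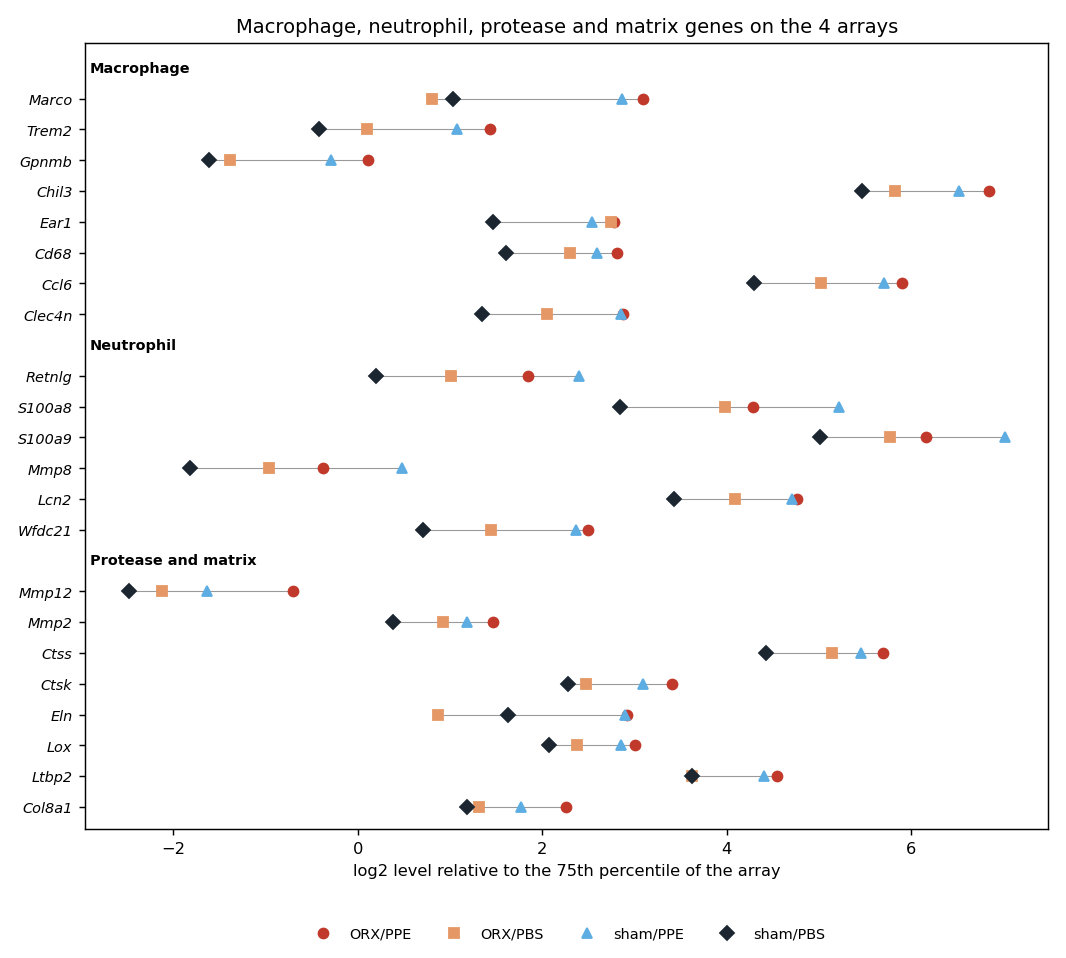
Log2 level relative to each array's 75th percentile (horizontal) of 22 macrophage, neutrophil, protease and matrix genes, 1 symbol per pooled array (red circles ORX/PPE, orange squares ORX/PBS, blue triangles sham/PPE, black diamonds sham/PBS). The genes drawn were picked from those higher in ORX/PPE, so that ORX/PPE lies right of sham/PBS in every one follows from the choice, and other members of their lists, such as Ltf at -1.3, lie the other way. For S100a8 the sham/PPE pool, at 5.22, lies right of ORX/PPE at 4.28, and for Eln the ORX/PBS pool, at 0.87, lies left of sham/PBS at 1.63.

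Elastic fibre genes differed in a few members. Eln, which encodes elastin, had levels of 2.92 in ORX/PPE, 0.87 in ORX/PBS and 2.89 in sham/PPE lungs, against 1.63 in sham/PBS lungs. The difference was 1.29, a second Eln probe gave 0.85, and ORX/PBS was the lowest of the 4 pools. Lox, the enzyme that cross-links elastin and collagen, was at 0.94, Ltbp2, a microfibril-associated protein, at 0.93 and the microfibril component Mfap5 at 0.77. Eln was the only 1 of 22 members past 2-fold, and the list's median was 0.14. Efemp1 at -0.39 and Ltbp4 at -0.16 were on the other side of 0.

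Collagen genes had no common direction, with 15 of 33 above 0 and 18 below, and the median of -0.01 changed sign with the scaling. Col8a1, a short-chain collagen of vessels and basement membranes, had levels of 2.26, 1.31 and 1.77 in ORX/PPE, ORX/PBS and sham/PPE, against 1.18 in sham/PBS, a difference of 1.08. The basement membrane chains Col4a1 and Col4a2 were at 0.79 and 0.58. The fibrillar chain Col3a1 was at 0.32 on its brightest probe and at -0.78 and -0.66 on 2 others, so its direction is not settled. Col11a1 was at -1.06, but -0.21 with normexp and 0.44 on another probe. Tnc, a matrix glycoprotein of injured tissue, was at 1.1, or 0.64 with normexp, and fibronectin, Fn1, at 0.74.

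Matrix metalloproteinases counted 5 of 15 measured genes at least 2-fold higher and 0 lower, with a median of 0.35. Mmp12, the macrophage elastase, had levels of -0.70 in ORX/PPE, -2.12 in ORX/PBS and -1.64 in sham/PPE, against -2.48 in sham/PBS. Its difference of 1.78 was 1.34 with normexp and 0.95 on a second probe, and the ORX/PPE pool stood above the other 3. Mmp8, the neutrophil collagenase, had -0.38, -0.96 and 0.48, against -1.82 in sham/PBS, with sham/PPE highest. The gelatinase Mmp2 and the broad-range Mmp19 were both at 1.08, and a second Mmp19 probe was at 1.12. Mmp13, another collagenase, was at 1.11 with a dim signal, and 0.41 with normexp.

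All 12 measured cathepsins, proteases of the lysosome, were above 0, with a median of 0.43. Ctss, an elastin-degrading cysteine cathepsin of antigen-presenting cells, had levels of 5.70 in ORX/PPE, 5.14 in ORX/PBS and 5.45 in sham/PPE, against 4.43 in sham/PBS, a difference of 1.27. Ctsk, a cysteine cathepsin that degrades collagen and elastin, was at 1.13, and Ctsd, an aspartic protease, at 0.93. Ctse was above background in ORX/PPE but not well above background in sham/PBS, a difference of at least 3.74-fold. Such a bound sets the ORX/PPE level against a sham/PBS value. That value is the higher of the gene's own sham/PBS level and the lowest level above background there. A bound holds for the processed signal only, and with normexp the log2 difference of Ctse was 0.52. Of 15 measured ADAMTS proteases, some of which cut proteoglycans, 7 were above 0 and 8 below. At least 2-fold lower were 2 of them, and 0 were higher. Adamts4 had levels of -2.79, -3.43 and -1.78 in ORX/PPE, ORX/PBS and sham/PPE, against -1.23 in sham/PBS, and a second probe gave -1.74 for its difference of -1.56. Adamts9 was at -1.25.

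Protease inhibitors were mixed by family. Of 34 measured serpins 24 were below 0, 4 were at least 2-fold lower and 0 higher, with a median of -0.20. The alpha-1 antitrypsin genes, whose human counterpart SERPINA1 inhibits neutrophil elastase, were dim in lung. Serpina1a had levels of -4.74 in ORX/PPE, -2.98 in ORX/PBS and -1.33 in sham/PPE, against -3.58 in sham/PBS, a difference of -1.15 that was -0.44 with normexp. Serpina1c was at -1.07, Serpina1e at -0.87 and Serpina1b at -0.41, which were -0.38, -0.44 and -0.26 with normexp, and Serpina1d was above background on neither of the 2 arrays. These genes are near-identical copies and their probes may share targets. In the antichymotrypsin cluster Serpina3i was at -1.46, or -0.72 with normexp, Serpina3f at -1.06, or -0.75 with normexp, Serpina3h at -0.89 and Serpina3m at -0.83, while Serpina3n was at -0.07.

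Of 12 measured cystatin and stefin genes, inhibitors of cysteine cathepsins, 3 passed 2-fold on the higher side and 1 on the lower, with a median of 0.39 that was 0.21 with normexp. The higher ones were stefins: Stfa2 was at 1.20, Stfa2l1 at 1.18 and Stfa1 at 1.1, which were 0.96, 0.85 and 0.53 with normexp. They belong to a cluster of near-identical genes. The stefins Csta3 at 0.85, Cstb at 0.21 and Csta2 at 0.17 did not pass 2-fold, and Csta1 and Stfa3 were not measured on both arrays. Cst8, a cystatin known from the reproductive tract, had levels of 0.16, 0.97 and 1.26 in ORX/PPE, ORX/PBS and sham/PPE, against 1.63 in sham/PBS, and both its probes gave -1.46. Of 17 WAP domain genes 2 passed 2-fold on the higher side and 1 on the lower. Wfdc21 had levels of 2.50, 1.44 and 2.36, against 0.71 in sham/PBS, a difference of 1.79, and Wfdc17 was at 1.06. Slpi, an inhibitor of neutrophil elastase made by airway epithelium, was at 0.62. Among metalloproteinase inhibitors 0 of 7 passed 2-fold: Timp1 was at -0.08, Timp2 at -0.09 and Timp3 at 0.58, with its other probes between -0.05 and 1.16.

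**Figure D3:**
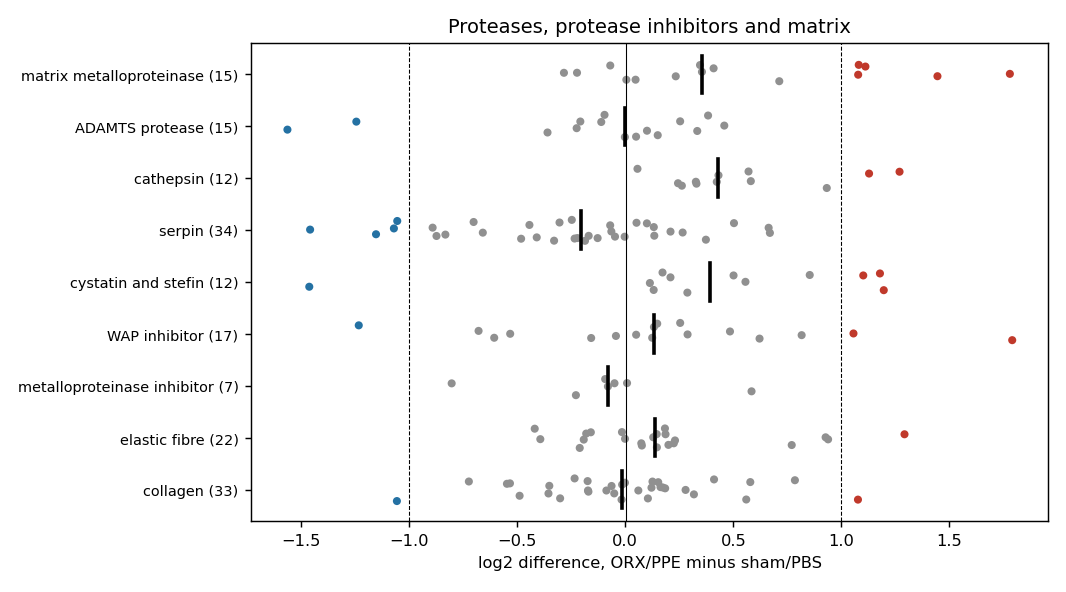
Differences (log2, ORX/PPE minus sham/PBS) of the measured members of 9 protease, inhibitor and matrix lists, 1 point per gene, with the number of genes in brackets and a black bar at the median. Red and blue points are at least 2-fold higher and lower, dashed lines mark 2-fold and the thin line the median of all genes. All 12 cathepsins lie right of 0, and serpins have their bar at -0.20.

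Of 26 measured neutrophil genes 20 were above 0 and 6 below, 9 passed 2-fold on the higher side and 1 on the lower, and the median was 0.35. S100a8, an abundant calcium-binding alarmin, had levels of 4.28 in ORX/PPE, 3.98 in ORX/PBS and 5.22 in sham/PPE, against 2.84 in sham/PBS, a difference of 1.44. Its partner S100a9 had 6.16, 5.77 and 7.01, against 5.01. In both, sham/PPE was highest and sham/PBS lowest. Retnlg, a resistin-like protein of neutrophils, was at 1.64, and Lcn2, an iron-withholding granule protein also made by epithelium, at 1.33, with a second probe at 1.69. Cxcr1, a chemokine receptor, was at 1.27 and 0.59 with normexp. The granule enzyme gene Elane was at -0.24, Mpo at -0.33 and the surface marker Ly6g at -0.14. Ltf, lactoferrin of neutrophil granules and airway glands, was at -1.3, with levels of 2.29, 3.11 and 3.91, against 3.59 in sham/PBS.

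Chemokine genes leaned lower, with 24 of 34 below 0 and a median of -0.22. Ccl6, made by macrophages, had levels of 5.90 in ORX/PPE, 5.02 in ORX/PBS and 5.71 in sham/PPE, against 4.29 in sham/PBS, a difference of 1.61. Cxcl5, an epithelial attractant of neutrophils, had -3.63, -4.91 and -1.56, against -1.25, a difference of -2.38 that was -1.51 with normexp. Both ORX pools were low in Cxcl5 and both sham pools high. The monocyte attractants Ccl2 and Ccl7 were at -0.81 and -0.93. Of 24 inflammatory cytokine genes 0 passed 2-fold, with Il1r2, a decoy receptor, at 0.93 and Il6 at -0.61, or -0.35 with normexp. Saa3, an acute phase apolipoprotein made locally by macrophages and epithelium, had levels of 1.28, -0.07 and 1.13, against -0.18 in sham/PBS, a difference of 1.46, while haptoglobin, Hp, was at -0.46.

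B cell genes had a median difference of 0.68, with 19 of 20 above 0, 6 at least 2-fold higher and 0 lower. Ms4a1, which encodes CD20, had levels of 2.46 in ORX/PPE, 2.53 in ORX/PBS and 1.99 in sham/PPE, against 0.97 in sham/PBS. The difference was 1.49 on this probe and 1.04 on another, and the sham/PBS pool lay below the other 3. Cd79b, a chain of the B cell receptor complex, was at 1.19 and Tnfrsf13c, the BAFF receptor, at 1.07, with another probe at -0.47. All 11 MHC class II genes, which present antigen on B cells, dendritic cells and macrophages, were above 0, with a median of 0.65. H2-Oa, a class II accessory chain, was at 1.20, the invariant chain Cd74 at 0.83 and H2-Ab1 at 0.65. Of 27 T cell genes 24 were above 0 and 1 passed 2-fold, the homing receptor Ccr7 at 1.0, or 0.99 with normexp. Cd8b1 was at 0.87 and Cd4 at -0.23, with another Cd4 probe at 0.32. Igkv14-126, an immunoglobulin light chain variable segment, had the largest positive difference of the measured genes, 2.37, with a dim signal and 1.17 with normexp. Interferon response genes leaned the other way, with 23 of 30 below 0 and Gbp6, a guanylate-binding protein, at -1.27.

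Airway epithelial genes were lower by small amounts over most of their lists. Of 39 measured genes of ciliated cells 37 were below 0, with a median of -0.29. Foxj1, a transcription factor that directs motile cilia, had levels of 2.96 in ORX/PPE, 2.98 in ORX/PBS and 2.81 in sham/PPE, against 3.53 in sham/PBS, so the sham/PBS pool lay above the other 3. Gmnc, an upstream regulator of multiciliated cells, was the only 1 past 2-fold, at -2.06 and -1.41 with normexp. Club cell genes had 17 of 21 below 0 and a median of -0.27. Bpifa1, a secreted airway defence protein, had levels of 5.13, 6.02 and 6.55 in ORX/PPE, ORX/PBS and sham/PPE, against 6.91 in sham/PBS, a difference of -1.78. Cldn10, a tight junction protein, was at -0.93 and the secretoglobin Scgb3a2 at -0.61, while Scgb1a1 was at -0.07. Of 17 goblet and mucous genes 12 were below 0, with a median of -0.28, and 1 passed 2-fold on the lower side, Ltf. The 3 past 2-fold on the higher side were Itln1 at 1.36, or 0.92 with normexp, the anion exchanger Slc26a4 at 1.25 and Clca1, a mucus-processing protease, at 1.15. Clca1 had levels of 3.30, 1.4 and 1.28, against 2.15 in sham/PBS, high in ORX/PPE alone. The mucin Muc5ac was at 0.08 and the goblet regulator Spdef at -0.66.

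No gene of the alveolar epithelium and capillary lists passed 2-fold, near the shares of 0.801% higher and 1.07% lower over all measured genes. Alveolar type 2 genes had 15 of 22 above 0 and a median of 0.20, with Fasn, the fatty acid synthase, at 0.64 and Sftpc at -0.07. Alveolar type 1 genes had a median of -0.01 that changed sign with the scaling. Of 29 capillary endothelial genes 21 were below 0, with a median of -0.18. Apln was at -0.68, the VEGF receptor Kdr at -0.49, Pecam1 at -0.11 and the vasoconstrictor Edn1 at 0.94. In mesenchyme, Spon2, a secreted matrix protein, had levels of -0.14 in ORX/PPE, -0.28 in ORX/PBS and 1.83 in sham/PPE, against 2.68 in sham/PBS. Its difference was -2.83, with both ORX pools low and both sham pools high. Wnt2, a growth factor of lung mesenchyme, was at -1.20.

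**Figure D4:**
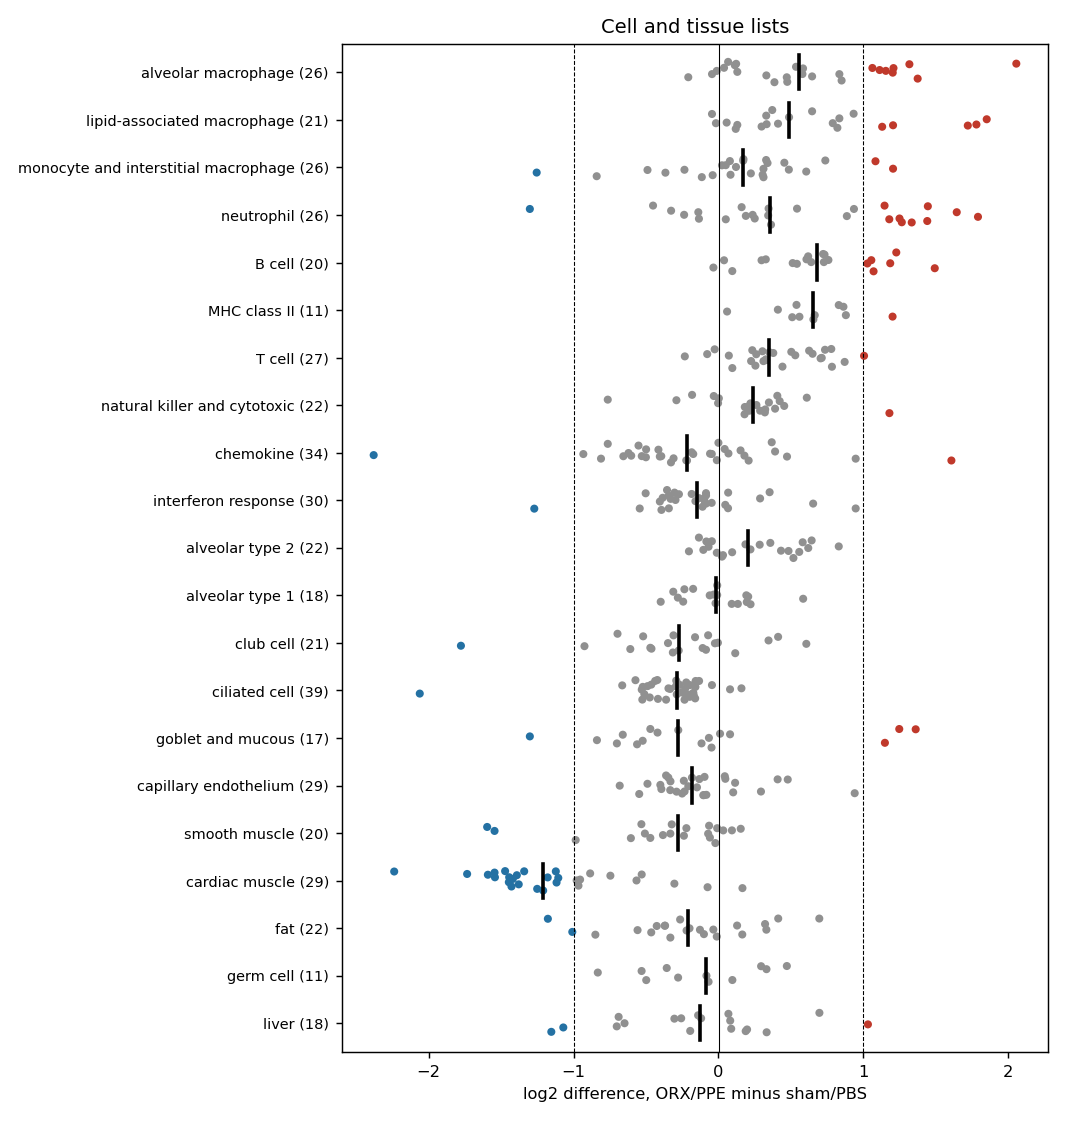
Differences (log2, ORX/PPE minus sham/PBS) of the measured members of 21 cell, tissue and response lists, 1 point per gene, with the number of genes in brackets and a black bar at the median. Red and blue points are at least 2-fold higher and lower, dashed lines mark 2-fold. Cardiac muscle has its bar at -1.21, and B cell and MHC class II genes at 0.68 and 0.65.

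Circadian clock genes were among those with the largest differences. The clock is a loop in which Arntl (BMAL1) with Clock or Npas2 drives the Per and Cry repressors and the output factors Dbp, Tef and Hlf, so that activator and output messages peak at different hours. Of 15 repressor and output genes 7 passed 2-fold on the higher side and 0 on the lower, with a median of 0.99. Arntl had levels of -1.90 in ORX/PPE, -1.71 in ORX/PBS and -0.08 in sham/PPE, against 0.46 in sham/PBS, a difference of -2.37 with other probes at -1.86 and -1.60. Its probe lies at chr7:120456978-120457037 of mm9. Dbp had 4.41, 4.62 and 4.10, against 2.46 in sham/PBS, a difference of 1.95, and a second probe gave 2.14. Per3 had 0.84, 0.90 and 0.18, against -0.54, a difference of 1.37.

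Per2 had levels of 3.18 in ORX/PPE, 3.21 in ORX/PBS and 1.97 in sham/PPE, against 1.80 in sham/PBS. In all 8 clock genes past 2-fold, both ORX pools lay on the same side of both sham pools. The order of ORX/PPE and sham/PBS in these genes follows from the 2-fold choice. In Dbp the sham/PPE pool lay nearer to the ORX pools than to sham/PBS. Hlf differed by 1.42, Tef by 1.15 and Nr1d2, a nuclear receptor that represses Arntl, by 1.15. Cry1, a repressor, differed by 1.14, which was 0.68 with normexp and 0.64 on another probe. Per1 at 0.43 and Nr1d1 at -0.33 did not pass 2-fold. Npas2 was not well above background in ORX/PPE and at least 3.15-fold lower there, but its log2 difference was -0.49 with normexp.

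RefSeq promoters on GRCm38.p6, from 250 bases before to 50 after a start, were found for 7 of the 8 clock genes past 2-fold. They were searched on both strands for the E-box CACGTG, bound by Arntl with Clock, and the D-boxes TTATGTAA and TTACGTAA, bound by Dbp, Tef and Hlf. No window held both motifs. An E-box stood in the windows of Cry1 and Tef and a D-box in that of Per3, and the windows of Arntl, Nr1d2, Dbp and Hlf held neither, against 7.15% and 1.06% of 32851 promoters of that length. A match describes letters and is no measure of binding. The windows with a match are printed 5′ to 3′ with the motif in capitals, Per3 at chr4:151044616-151044915 (minus strand), Cry1 at chr10:85185005-85185304 (minus strand) and Tef at chr15:81802423-81802722 (plus strand).
Per3: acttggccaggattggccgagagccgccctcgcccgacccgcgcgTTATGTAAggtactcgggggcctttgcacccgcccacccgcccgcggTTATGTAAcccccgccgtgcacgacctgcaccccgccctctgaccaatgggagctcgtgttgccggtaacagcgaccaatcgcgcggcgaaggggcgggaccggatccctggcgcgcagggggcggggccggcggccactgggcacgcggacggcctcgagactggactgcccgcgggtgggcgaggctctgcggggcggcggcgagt
Cry1: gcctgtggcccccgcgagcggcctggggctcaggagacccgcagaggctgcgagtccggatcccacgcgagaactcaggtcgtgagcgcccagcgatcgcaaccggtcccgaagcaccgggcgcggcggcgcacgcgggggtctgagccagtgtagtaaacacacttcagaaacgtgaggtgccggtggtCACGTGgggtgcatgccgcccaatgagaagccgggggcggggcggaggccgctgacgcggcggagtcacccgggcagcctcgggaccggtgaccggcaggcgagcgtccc
Tef: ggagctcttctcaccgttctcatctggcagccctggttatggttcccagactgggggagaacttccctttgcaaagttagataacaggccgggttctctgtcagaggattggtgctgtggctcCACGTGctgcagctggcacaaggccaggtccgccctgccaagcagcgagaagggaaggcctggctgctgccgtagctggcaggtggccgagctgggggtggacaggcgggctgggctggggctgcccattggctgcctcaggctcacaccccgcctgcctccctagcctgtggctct
A second Tef start, at chr15:81811164-81811463, also had 1 E-box.

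**Figure D5:**
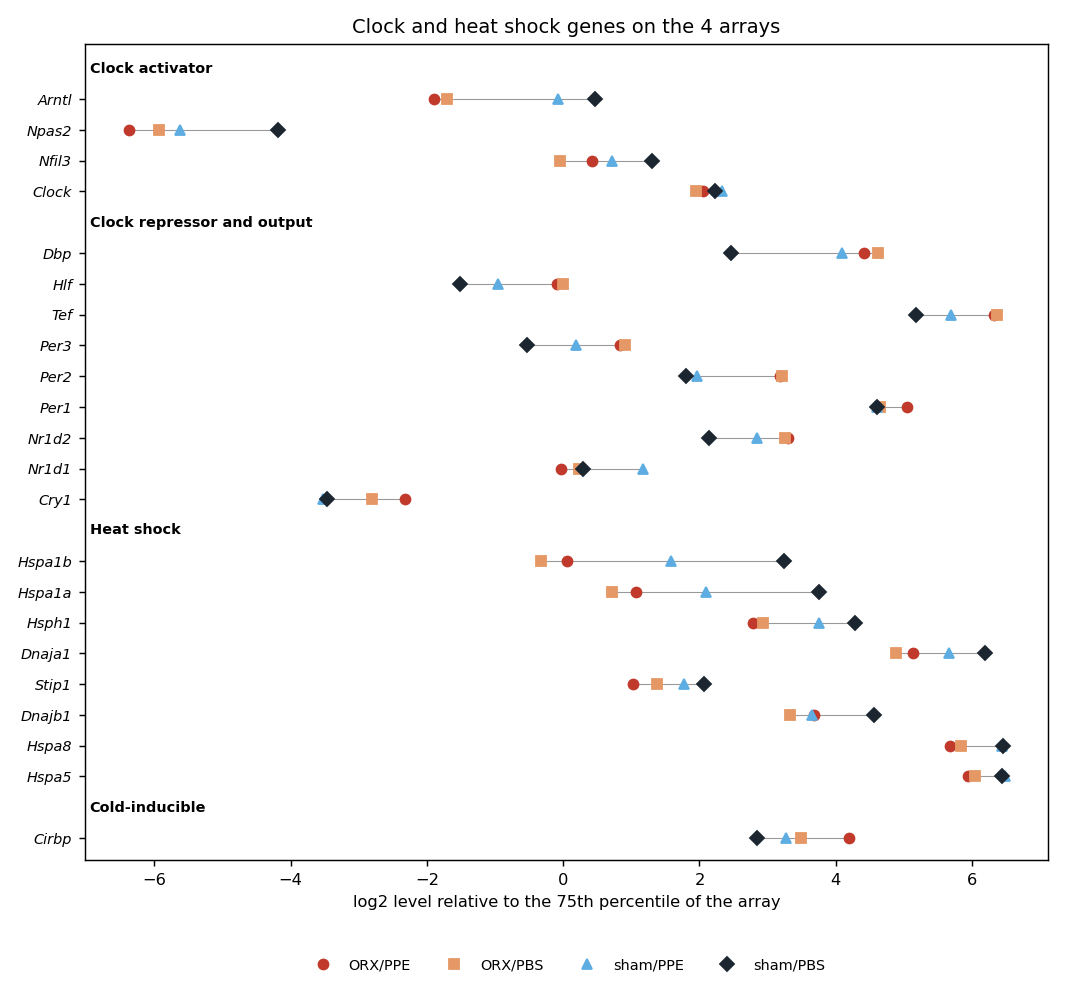
Log2 level relative to each array's 75th percentile (horizontal) of 21 clock and heat shock genes and Cirbp, 1 symbol per pooled array (red circles ORX/PPE, orange squares ORX/PBS, blue triangles sham/PPE, black diamonds sham/PBS). Npas2 was not well above background in ORX/PPE or sham/PPE. Hspa1b reaches 3.24 in sham/PBS and 0.06 in ORX/PPE, with sham/PPE at 1.59 between them.

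Heat shock genes were lower in ORX/PPE lungs: 23 of 26 measured members were below 0, 5 were at least 2-fold lower and 0 higher, with a median of -0.50. Hspa1b and Hspa1a, the inducible HSP70 chaperones, had the lowest difference and the third lowest of all measured genes. Hspa1b had levels of 0.06 in ORX/PPE, -0.33 in ORX/PBS and 1.59 in sham/PPE, against 3.24 in sham/PBS, a difference of -3.19. Hspa1a had 1.06, 0.71 and 2.10, against 3.76, a difference of -2.70. The sham/PBS pool was highest and both ORX pools lowest. The 2 genes are near-identical copies, so their probes may read both.

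Hsph1, a co-chaperone of HSP70, had levels of 2.79, 2.93 and 3.76 in ORX/PPE, ORX/PBS and sham/PPE, against 4.29 in sham/PBS, a difference of -1.50 with other probes at -1.65 and -1.57. Dnaja1, an HSP40 protein, was at -1.05 and the adaptor Stip1 at -1.03. Hspa5, the chaperone of the endoplasmic reticulum, was at -0.50. Cirbp, an RNA-binding protein induced by cold, was at 1.35, with other probes between -0.25 and 1.01. Among 28 immediate early genes, which respond to stimuli within minutes, 19 were below 0 and 2 at least 2-fold lower, Fos at -1.23 and Ptgs2 at -1.13.

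Heat shock promoters were searched for 2 inverted repeats of the heat shock factor site, GAANNTTC and TTCNNGAA, a search chosen after the values were seen. They stood in at least 1 window of 4 of the 5 genes past 2-fold, Hspa1a, Hspa1b, Hsph1 and Dnaja1. Of all promoters of this length 15.1% held a match, a share of single windows and not of genes. Dnaja1 had 1 match in the window at chr4:40722218-40722517 and 0 in its other windows. The windows of Hspa1a and Hspa1b were identical at 296 of 300 aligned bases, 98.7%, so Hspa1a is shown, at chr17:34972107-34972406 (minus strand). Hsph1, at chr5:149636287-149636586 (minus strand), held 3 matches, of which 2 overlap each other at the end. Capitals mark the matches on GRCm38.p6.
Hspa1a: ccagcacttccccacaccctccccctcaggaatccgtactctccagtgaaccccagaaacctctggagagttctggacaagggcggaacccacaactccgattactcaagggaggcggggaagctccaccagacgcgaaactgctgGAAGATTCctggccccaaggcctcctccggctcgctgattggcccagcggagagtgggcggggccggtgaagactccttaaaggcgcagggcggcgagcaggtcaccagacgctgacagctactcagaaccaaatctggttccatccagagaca
Hsph1: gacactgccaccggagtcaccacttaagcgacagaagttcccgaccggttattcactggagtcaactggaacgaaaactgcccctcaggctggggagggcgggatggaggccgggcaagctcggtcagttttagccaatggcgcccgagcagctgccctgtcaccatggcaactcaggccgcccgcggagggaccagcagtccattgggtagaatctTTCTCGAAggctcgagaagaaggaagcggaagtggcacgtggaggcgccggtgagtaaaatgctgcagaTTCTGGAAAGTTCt

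Genes of heart muscle formed the most uniform lower group. Of 29 measured genes 28 were below 0, 19 were at least 2-fold lower and 0 higher, with a median of -1.21. In the mouse, heart muscle cells sheathe the pulmonary veins into the lung. Nppa, the atrial hormone precursor, had levels of 1.46 in ORX/PPE, 2.97 in ORX/PBS and 6.08 in sham/PPE, against 3.06 in sham/PBS, a difference of -1.59 with a second probe at -1.58. Myh6, the atrial myosin heavy chain, had 2.58, 3.64 and 4.89, against 4.12, a difference of -1.54. Sln, an inhibitor of the calcium pump, was at -1.34, Mb, myoglobin, at -1.42 and Mybphl, a myosin-binding protein of the atrium, at -2.24, or -1.47 with normexp. ORX/PPE was lowest and sham/PPE highest in Nppa and Myh6. The summed level of the list, as a multiple of the 75th percentile, was 64.9 in ORX/PPE, 122 in ORX/PBS and 290 in sham/PPE, against 145 in sham/PBS, and all 29 members were above background on both arrays compared. The part of these cells in the other results was not tested.

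Other organs gave fewer members past 2-fold. Of 22 fat genes 2 were at least 2-fold lower, the gluconeogenic enzyme Pck1 at -1.18 and the respiratory subunit Cox7a1 at -1.01, or -0.98 with normexp, and Ucp1 was above background on neither array. Skeletal muscle and germ cell genes had 0 of 11 each. Of 18 liver genes 1 was higher, the fibrinogen chain Fgg at 1.03, or 0.72 with normexp, and 2 lower, Serpina1a and Serpina1c, and Alb was at -0.69, or -0.37 with normexp. Of 20 smooth muscle genes 17 were below 0, and both past 2-fold, Casq2 and Pln, are also heart muscle genes.

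Androgen-linked genes had 11 of 22 above 0, 11 below and 1 past 2-fold. Rhox5, a homeobox gene that androgen induces in mouse testis and epididymis, had levels of -5.19 in ORX/PPE, -4.67 in ORX/PBS and -3.88 in sham/PPE, against -3.65 in sham/PBS, a difference of -1.54 that was -0.44 with normexp and -0.50 on another probe. Both ORX pools were lower in Rhox5 than both sham pools. Major urinary proteins, pheromone carriers that liver makes under androgen and growth hormone, were dim. Of 7 measured members of their list, which also holds Obp1a and Lcn11, 2 were at least 2-fold lower and 0 higher. There were 2 above 0 and 5 below, with a median of -0.11. Mup19 was at -1.90 and Mup4 at -1.25, or -0.92 and -0.36 with normexp. Mup2 was at -0.86, or -0.23 with normexp, Mup6 at -0.11 and Mup3 at 0.09. Mup1, Mup18, Mup21 and Mup17 were not well above background in ORX/PPE. With the processed signal they were at least 5.21-fold, 5.19-fold, 4.13-fold and 3.49-fold lower there than in sham/PBS. With normexp their log2 differences were smaller, at -0.76, -0.82, -0.65 and -0.66. These genes are close copies of each other, and sham/PPE was the highest pool in all 4.

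Other single genes with large differences are members of none of these gene lists. On the higher side, Doc2b, a calcium sensor of exocytosis, was at 1.99 and the adhesion gene Pcdh20 at 1.88, both dim, and 0.94 and 1.0 with normexp. Pate4, a small secreted protein of the male reproductive tract, was above background in ORX/PPE alone of the 4 pools, at least 5.78-fold higher than in sham/PBS. Rasl10b, Tcp10c and Cd200r2 were at least 4.82-fold, 4.19-fold and 3.93-fold higher. On the lower side, Syt10, a synaptotagmin, was at -1.79 with another probe at -0.04, and Gja5, the gap junction protein connexin 40 of arteries and atrium, at -1.41 with other probes between -0.06 and 0.19. Psg29, a pregnancy-specific glycoprotein, was at -1.48, and Trim63, a muscle ubiquitin ligase, was at least 4.28-fold lower.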

How the data were processed

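Total RNA from frozen lung, 1 pool of 5 mice per group, was hybridized to 1-colour Agilent mouse 8x60K arrays. The scanner intensity of each spot was deposited by the authors as background-subtracted processed signal, for which the file headers give Feature Extraction 10.7.1.1 and the submitters' processing notes 9.5.1.1. The deposited value table holds intensity values whose correlation with the scanner signals was at least 0.9998 on the log2 scale per array, and it served as an alternative.

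Control and outlier-flagged spots were left out, spots of a probe averaged, and the deposited intensity turned into log2 values minus each array's 75th percentile (Python 3 with pandas). Probes were named through RefSeq accession, symbol or synonym, and each gene was read from its brightest probe. A difference was described where the gene was well above background on both arrays and called at 2-fold; no test was possible, and the calculation was checked on simulated data. Probe coordinates are those of the file (mm9) and promoters those of RefSeq GRCm38.p6. Alternatives were normexp (limma, offset 50), quantile normalization, median centring, the value table, other filters, mean of probes and other thresholds.

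The groups compared, the 61 gene lists and the genes fixed by name were chosen with earlier results of these data known. The naming rule took the top 20 and bottom 20 genes when ranked on whichever of the processed and normexp differences was smaller in size, the top and bottom 5 on the plain difference, the 5 largest bounds each way, up to 6 per list and direction, and genes fixed by name. Clone and locus numbers were counted without being named. Ntn5, Qrich2, Dnajb1, Hspa8 and the stefins below 2-fold were named after their values were seen.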

Additional observations from a re-analysis of the deposited data

How the results depend on the processing

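The counts of 148 higher and 197 lower genes moved by over 1.5 times under 4 alternatives. They were 57 and 63 with normexp, 810 and 951 with no filter on dim probes, 816 and 928 at a 1.5-fold threshold, and 2 and 7 at a 4-fold threshold. The wider filter and the other thresholds differ by construction, and the cause of the lower normexp counts was not tested. Quantile normalization and the value table both gave 160 and 185. Their values differed by a median size of 0.0003, so the value table is no separate check on quantile normalization. Median centring gave 172 and 175, genes above background on all 4 arrays 146 and 193, and the mean of measured probes 137 and 176. No called gene named in the text changed sign under the alternatives run, nor did the cardiac muscle median, the only list median past 2-fold. Sizes were less stable. With normexp 257 genes of the naming rule moved by more than the repeat spot SD of 0.048 and 354 did not. Of the list medians 20 moved and 41 did not. With the mean of measured probes 171 genes moved and 440 did not, and 15 list medians moved and 46 did not. Median centring moved the median of all genes to 0.05. Medians near 0 changed sign with the scaling for the collagen, ADAMTS, inflammatory cytokine, complement, alveolar type 1, clock activator, androgen, mitochondrial and hypoxia lists. The slide could not be used as a block because all arrays shared 1 slide. No paired analysis was possible because each group had 1 array. One pool a group gives no spread between mice, and dim probes were the least precise, with a repeat spot SD of 0.59 under a signal of 50.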

Other observations

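Several pathways outside the main groups held single genes past 2-fold. In retinoid metabolism Stra6l, a homologue of the retinol transporter Stra6, had levels of -2.41 in ORX/PPE, -4.20 in ORX/PBS and -2.67 in sham/PPE, against -4.16 in sham/PBS, a difference of 1.75, or 0.91 with normexp. Cyp26b1, which degrades retinoic acid, had 3.47, 3.36 and 1.95, against 2.39 in sham/PBS, a difference of 1.08, with both ORX pools above both sham pools. Stra6, which takes up retinol, was at -1.07. Of 16 measured retinoid genes 2 were higher and 1 lower, with a median of -0.13.

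Among 24 prostaglandin and leukotriene genes 2 were past 2-fold on the higher side and 1 on the lower. Tbxas1, thromboxane synthase, was at 1.17, Ptgir, the prostacyclin receptor, at 1.05, or 0.94 with normexp, and Ptgs2, the inducible cyclooxygenase, at -1.13. Genes of the unfolded protein response had 16 of 17 below 0 and a median of -0.26, with Creld2 at -0.68 and Manf at -0.67 and 0 past 2-fold. The antioxidant gene Nqo1 was at -0.79, and 0 of 26 genes of its list passed 2-fold. Hyaluronan synthases Has1, Has2 and Has3 lay between -0.82 and -0.77, but were -0.68, -0.30 and -0.13 with normexp. In transforming growth factor signalling Ccn2, a matricellular protein, was at 0.89 and Gdf15 at 0.73, with 0 of 30 past 2-fold. Reference genes had a median of 0.06, with Actb at -0.06 and Rpl13a at 0.24.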
